A study of Mus musculus with 36 samples.

Results

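Aqp1, the gene of the water channel aquaporin 1, was followed across 36 RNA sequencing libraries from a pair of mouse breast cancer lines, AT-3 and E0771. It is 1 of the 32285 mouse genes in the deposited count table, listed there as ENSMUSG00000004655, and was chosen by its measured rise from the DMSO to the KCl libraries, which was large. Because of that choice every comparison that uses those libraries is given below as a description without a test. AT-3 cells derive from a mammary tumour of an MMTV-PyMT mouse and E0771 cells from a mouse mammary adenocarcinoma, and each line was seeded for 24 h and then treated for 24 h. The 6 treatments per line were DMSO, 10 µM NS11021, 10 µM BMS204352, 40 mM KCl, KCl with NS11021 and KCl with BMS204352, at the same doses when combined, with 3 libraries each. NS11021 is an opener of BK, a calcium-activated potassium channel; BMS204352 acts as an opener of BK and of KCNQ channels.

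Aquaporin 1 forms tetramers in the plasma membrane, and each subunit carries its own water pore. It lets water follow osmotic gradients and is best known from red blood cells, the kidney's proximal tubule and thin descending limb, and vascular endothelium. A high potassium concentration outside the cell depolarizes the plasma membrane, and added KCl also raises the osmolarity of the medium. Cells in hypertonic medium switch on osmolyte carriers, osmolyte-making enzymes and chaperones, many of them through the transcription factor NFAT5. The series is titled for the actin-regulated coactivator MRTFA and its partner SRF, cell stiffness, and cytoplasmic calcium and potassium. No group matched the osmolarity or the chloride of the KCl medium, so potassium, chloride and osmolarity as sources of a difference cannot be told apart in what follows. The labels do not say whether the 3 libraries of a group came from separate cultures, so p-values measure only the spread between these libraries, which may be technical.

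On GRCm38 (GENCODE vM21) the Aqp1 gene lies on the plus strand at chr6:55336432-55348555. It spans 12124 bases and has 1 annotated transcript of 4 exons, with 2627 exon bases, 807 of them coding. Its overlap with other genes was 0: Mindy4 lies 16210 bases before it and Ghrhr 27740 bases after it, so the unstated counting strand does not mix Aqp1 reads with those of an annotated neighbour. The 250 bases before the RefSeq gene start (GRCm38.p6, plus strand, chr6:55336049-55336298) are shown because they are where a reader would first look for response elements. Capitals mark each CACCC box, a type of element that Krüppel-like factors bind, on either strand.

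Aqp1 promoter: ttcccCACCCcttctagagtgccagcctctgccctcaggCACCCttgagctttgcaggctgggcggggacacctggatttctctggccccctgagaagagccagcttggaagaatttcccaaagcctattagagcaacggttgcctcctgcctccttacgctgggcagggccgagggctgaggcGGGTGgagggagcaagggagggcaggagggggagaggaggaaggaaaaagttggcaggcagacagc

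This stretch was 62% G and C, against a median of 52.4% over all 32851 RefSeq windows of that kind. It held 3 CACCC boxes, and 52% of all windows held at least 1. The core of the tonicity element bound by NFAT5 (TGGAAA, either strand) had 0 matches in it and was present in 18.6% of windows, and its longer consensus had 0 matches against 4.31% of windows. The CArG box of SRF (0 matches, 1.47% of windows), the AP-1 site TGANTCA (0 matches, 6.75%) and the TEAD site GGAATG (0 matches, 12.6%) were likewise not among these letters. Of 11 genes of the hypertonic response with a window, 3 held the tonicity element core (Ranbp3l, Sgk1 and Slc6a12). These are matches of letters in 1 window and say nothing about binding here or elsewhere in the gene.

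Library totals ran from 38.5 to 52.6 M counts in AT-3 and from 31.2 to 47.9 M in E0771, and Aqp1 was well covered, with 146 to 5130 counts per AT-3 library and 432 to 1838 per E0771 library. The share of mitochondrial transcripts was 0.490 to 0.792% in AT-3 and 0.522 to 1.03% in E0771. The replicate 3 library of AT-3 BMS204352 stood apart from the other 2 of its group, both across genes and in Aqp1. Aqp1 comparisons that include it are therefore given with and without it. Epithelial markers summed to between 2200 and 3098 counts per M of the library total (CPM) in AT-3. In E0771 they summed to 141 to 228 CPM, nearly all of it Krt8, and 9 of the 12 stayed below 1 CPM in every library, so this line carried few of the defining transcripts of epithelium.

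In AT-3 the Aqp1 transcript was scarce without KCl and abundant with it. The DMSO libraries had 5.94, 3.33 and 4.68 CPM (4.65 ± 1.30, SD, n = 3). The KCl libraries had 68.8, 72.0 and 112 CPM (84.4 ± 24.2, SD, n = 3). The lowest KCl library thus lay far above the highest DMSO library, and the ratio of means was 18.2. Taken by library number the ratio was 11.6, 21.6 and 24.0, and the fitted log2 fold change was 4.19 ± 0.60 (SE). These values chose the gene and support nothing further.

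In E0771 the transcript started higher and rose less. The DMSO libraries had 13.6, 11.8 and 12.5 CPM (12.6 ± 0.910, SD, n = 3). The KCl libraries had 34.4, 36.4 and 32.6 CPM (34.5 ± 1.95, SD, n = 3). The groups did not overlap and the ratio of means was 2.74, with 2.54, 3.10 and 2.61 by library number. The fitted log2 fold change was 1.46 ± 0.10 (SE), again as a description of the values that chose the gene.

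**Figure D1:**
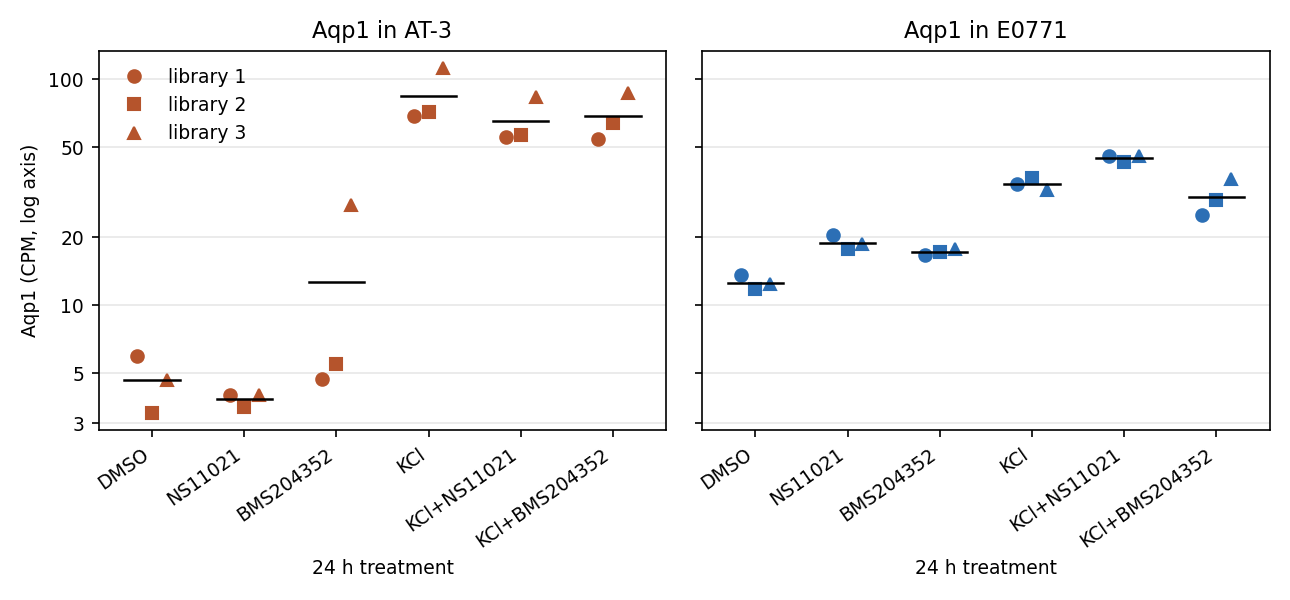
Aqp1 in each of the 36 libraries, in CPM on a log axis, by treatment; symbols mark the library number and each bar is the mean of 3 libraries. All KCl libraries lie above all others of their line, AT-3 between 54.6 and 112 CPM and E0771 between 25.2 and 45.8 CPM, and the AT-3 BMS204352 replicate 3 library, at 27.8 CPM, lies between the others of its group and the KCl libraries.

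The same rise was then measured between libraries other than the DMSO and KCl ones, with a channel opener on both sides. They belong to the same series, whose earlier results were known, so they are not an independent check of the choice. With NS11021 present in AT-3, the libraries without KCl had 4.02, 3.55 and 3.99 CPM (3.85 ± 0.261, SD, n = 3). Those with KCl had 55.5, 56.7 and 84.0 CPM (65.4 ± 16.1, SD, n = 3). Every KCl library was more than 10 times every library without it. Aqp1 rose 16.9-fold (95% interval 6.74 to 42.4), a log2 fold change of 4.08 ± 0.61 (SE) with an adjusted p of 0.00258 by edgeR's quasi-likelihood test. In this comparison 4.56% of 14772 genes were called in either direction at an adjusted p under 0.05, 2.97% higher. Over all 14772 genes Aqp1 ranked 12 by size of rise, with 3 called genes rising more. Among the 10529 genes whose mean log2 CPM was 2 or more, called well expressed below, no other rose as much. That mean includes the KCl libraries, which raise it for Aqp1, and the gene was chosen for a large rise. Gal3st1, which makes sulfated glycolipids (2.54 ± 0.24), and the organic anion transporter Slco4a1 (1.77 ± 0.22) came next among the well expressed genes.

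With BMS204352 present in AT-3 the libraries without KCl disagreed with one another, at 4.73, 5.51 and 27.8 CPM (12.7 ± 13.1, SD, n = 3). Those with KCl had 54.6, 64.4 and 87.0 CPM (68.7 ± 16.6, SD, n = 3). The groups did not overlap, although the replicate 3 library without KCl was within a few fold of those with it: the ratio by library number was 11.5, 11.7 and 3.13. Aqp1 rose 5.31-fold (95% interval 2.34 to 12), log2 2.41 ± 0.54 (SE), adjusted p = 0.0247 by edgeR, where 4.76% of genes were called, 3.26% higher. Without BMS204352 replicate 3 the log2 fold change was 3.73 (adjusted p = 6.57e-05 by edgeR). The call was lost without BMS204352 replicate 1 (2.01, adjusted p = 0.0634) or 2 (2.04, 0.0694) or KCl+BMS204352 replicate 2 (2.45, 0.0663) or 3 (2.19, 0.0644), and when only the 6 libraries compared were fitted (2.41, 0.307), all by edgeR. Of the well expressed genes only Slco4a1 (2.80 ± 0.22) and Gal3st1 (2.71 ± 0.23) rose more in the fit with all libraries. Over all 14772 genes Aqp1 ranked 70 in that fit, with 21 called genes rising more.

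With NS11021 present in E0771, the libraries without KCl had 20.4, 17.7 and 18.6 CPM (18.9 ± 1.41, SD, n = 3). Those with KCl had 45.8, 43.1 and 45.6 CPM (44.8 ± 1.53, SD, n = 3). The groups were tight and far apart. Aqp1 rose 2.40-fold (95% interval 2.10 to 2.73), log2 1.26 ± 0.09 (SE), adjusted p = 3.33e-12 by edgeR. KCl moved much of the transcriptome in this line: 40% of 13357 genes were called, 20.4% higher. Aqp1 ranked 67 of 9772 well expressed genes by size of rise. Over all 13357 genes it ranked 480, with 303 called genes rising more. The largest rises among well expressed genes were in the prostaglandin D synthase gene Ptgds (4.09 ± 0.21) and the receptor genes Mrgprf (3.41 ± 0.26) and Gprc5b (3.29 ± 0.20).

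With BMS204352 present in E0771, the libraries without KCl had 16.7, 17.1 and 17.8 CPM (17.2 ± 0.548, SD, n = 3). Those with KCl had 25.2, 29.2 and 36.3 CPM (30.2 ± 5.59, SD, n = 3). The groups stayed apart, with a wider spread among the KCl libraries than in any other E0771 group. Aqp1 rose 1.75-fold (95% interval 1.53 to 2.0), log2 0.81 ± 0.09 (SE), adjusted p = 9.65e-08 by edgeR, where 31.9% of genes were called, 15.8% higher. It ranked 115 of 9772 well expressed genes, again behind Ptgds (3.48 ± 0.23), Mrgprf (2.87 ± 0.26) and Gprc5b (2.84 ± 0.20). Over all 13357 genes it ranked 768, with 326 called genes rising more. When same-numbered libraries were treated as pairs, the counts of called genes in AT-3 grew by more than 1.5 times, from 674 to 1215 with NS11021 and from 703 to 1226 with BMS204352, and Aqp1 kept its 4 calls.

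**Figure D2:**
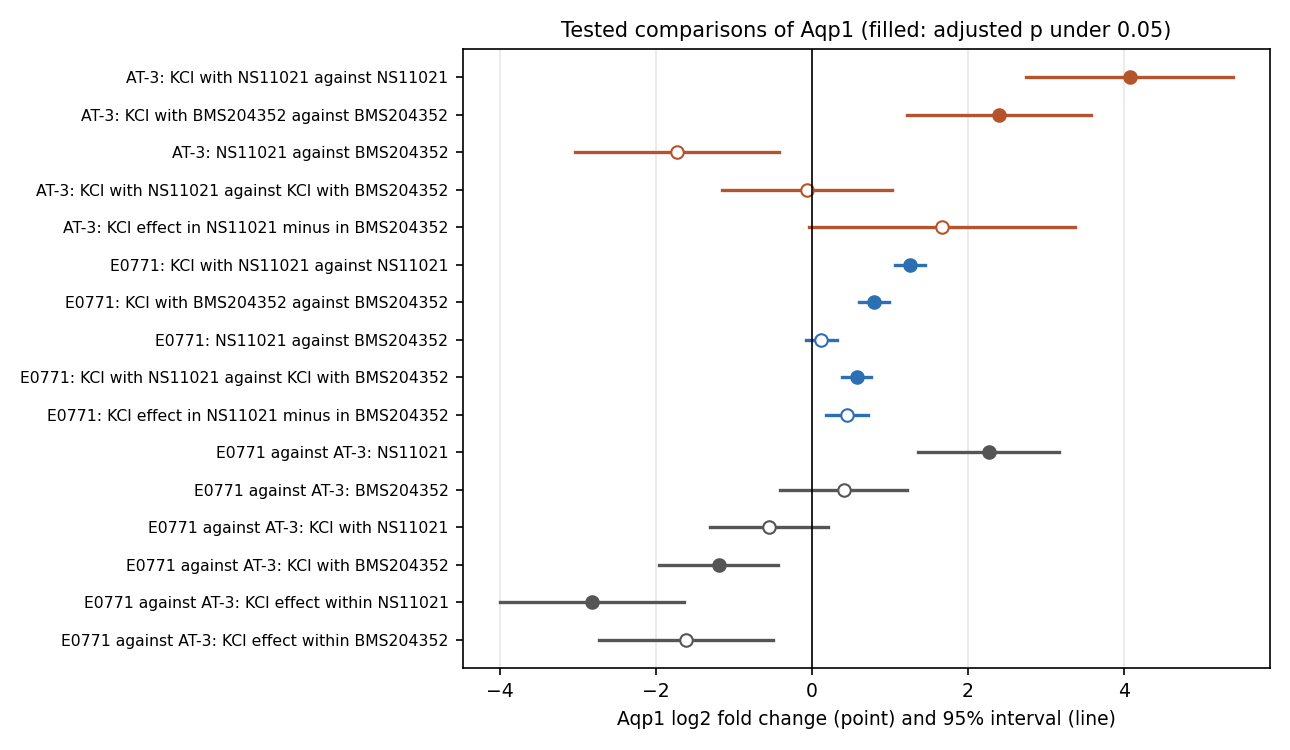
Log2 fold change of Aqp1 (point) with its 95% interval (line) for the 16 comparisons that leave out the DMSO and KCl libraries; filled points had an adjusted p under 0.05 by edgeR. The 4 rises with KCl are filled, from 0.81 to 4.08, and the AT-3 intervals are several times wider than those of E0771.

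The openers without KCl went with no clear change in AT-3, where the SEs were wide, and with a modest difference in E0771. The AT-3 SEs leave room for a change of the E0771 size, and the lines were not tested against each other for this. Against DMSO, as descriptions, NS11021 in AT-3 had a log2 fold change of −0.25 ± 0.64 (SE) and overlapping libraries. BMS204352 in AT-3 had 1.47 ± 0.59, and 0.14 without its replicate 3, so that library makes up nearly all of it. In E0771 both openers lay above DMSO with no overlap of libraries: 1.5-fold for NS11021 (0.58 ± 0.10) and 1.37-fold for BMS204352 (0.46 ± 0.10).

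The openers on top of KCl differed from each other in E0771 and did not separate in AT-3. As descriptions, KCl+NS11021 lay above KCl alone in E0771 with no overlap, 1.30-fold (log2 0.38 ± 0.09), while KCl+BMS204352 overlapped with it (−0.20 ± 0.09). Set against each other, KCl+NS11021 was 1.5-fold above KCl+BMS204352 in E0771 (95% interval 1.32 to 1.70, log2 0.58 ± 0.09, adjusted p = 0.000101 by edgeR), and all 3 libraries of the one lay above all 3 of the other. In that comparison 4.95% of genes were called. The mitochondrial share moved with this difference, at 0.789 to 1.03% with KCl+BMS204352 and 0.725 to 0.750% with KCl+NS11021, and its part in the result was not tested. In AT-3 the same difference was −0.06 ± 0.50 (95% interval −1.15 to 1.04, adjusted p = 0.980 by edgeR, 0.454% of genes called), an interval that leaves room for a change of 2-fold either way.

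Without KCl the openers were not told apart by the test in either line. In E0771 NS11021 minus BMS204352 was 0.13 ± 0.10 on the log2 scale (95% interval −0.07 to 0.32, adjusted p = 0.638 by edgeR, 1.76% of genes called). In AT-3 it was −1.73 ± 0.60 (95% interval −3.04 to −0.42, adjusted p = 0.149 by edgeR, 2.94% of genes called), and −0.40 (adjusted p = 0.764) without BMS204352 replicate 3. That AT-3 difference passed with DESeq2 (adjusted p = 0.0388) and without BMS204352 replicate 1 (−2.12, adjusted p = 0.0434 by edgeR).

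The rise with KCl was compared directly between the openers as an interaction. In E0771 it was larger with NS11021 than with BMS204352 by 0.45 ± 0.13 on the log2 scale (95% interval 0.18 to 0.72), but the adjusted p was 0.182 by edgeR, and 0.217% of genes were called. Without KCl+BMS204352 replicate 3 the difference was 0.60 (adjusted p = 0.0124 by edgeR). In AT-3 it was 1.67 ± 0.79 (95% interval −0.04 to 3.38, adjusted p = 1.0 by edgeR), and 0.35 without BMS204352 replicate 3. There edgeR called 0% of genes, with 186 higher and 233 lower at an unadjusted p under 0.05, and DESeq2 called 1 gene.

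The lines swapped order with KCl. Without KCl the E0771 libraries held more Aqp1: with NS11021 the difference of E0771 over AT-3 was log2 2.27 ± 0.44 (SE, adjusted p = 5.07e-05 by edgeR). With KCl they held less: with BMS204352 the difference was −1.19 ± 0.37 (adjusted p = 0.00579 by edgeR). About 3 in 4 genes differed between the lines in these comparisons (74.8% and 75.2% called), so a difference in level is common. With BMS204352 alone the difference was 0.41 ± 0.39 (adjusted p = 0.348, 74.5% called) and, without AT-3 replicate 3, 1.76 (adjusted p = 7.1e-07 by edgeR). With KCl+NS11021 it was −0.55 ± 0.37 (adjusted p = 0.180, 75% called). That difference passed with that library left out of the fit (−0.53, adjusted p = 0.0124 by edgeR) or with only the libraries compared (−0.54, 0.0257). As descriptions, E0771 lay above AT-3 by 1.44 ± 0.44 in DMSO and below it by −1.30 ± 0.37 in KCl.

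The size of the KCl rise differed between the lines. With NS11021 present it was smaller in E0771 than in AT-3 by −2.82 ± 0.57 on the log2 scale (95% interval −4.00 to −1.64, adjusted p = 0.00198 by edgeR), in a comparison in which 9.48% of 15969 genes were called. With BMS204352 present it was smaller by −1.60 ± 0.54 (95% interval −2.72 to −0.49, adjusted p = 0.0958 by edgeR, 4.82% called). That second difference passed with same-numbered libraries as pairs (−1.80, adjusted p = 0.0115 by edgeR) and without the AT-3 BMS204352 replicate 3 library (−2.92, adjusted p = 1.83e-06 by edgeR). The difference measured against DMSO was −2.73 ± 0.57, as a description.

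Ordered by mean level, AT-3 with NS11021 and with DMSO stood lowest and overlapped. E0771 with DMSO, with BMS204352 and with NS11021 came next at 12.6 to 18.9 CPM. The AT-3 BMS204352 mean of 12.7 CPM fell among them only through replicate 3. E0771 with KCl+BMS204352 and with KCl overlapped at 30.2 and 34.5 CPM, E0771 with KCl+NS11021 stood clear above them at 44.8 CPM, and the 3 AT-3 groups with KCl overlapped at the top, at 65.4 to 84.4 CPM. Of the 12 groups, AT-3 BMS204352 had the widest relative spread, with an SD of 103% of its mean, and the E0771 groups other than KCl+BMS204352 had SDs of 3.18 to 7.45%.

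The AT-3 BMS204352 replicate 3 library was looked at beside the KCl libraries. Its Aqp1 level was log2 2.46 above the mean of the other 2, the rank of 74 among 14772 genes. The 438 other genes that rose with KCl between the NS11021 libraries had a median difference of 0.03 in that library, against 0.01 over all genes. Of them 242 (55.3%) lay above the mean of the other 2 libraries, against 51.2% of all genes and 45.1% of the genes that fell with KCl. Those shares lay within the range of the AT-3 DMSO libraries, each set against the other 2 of its group. There the share was 38.4% (replicate 1) to 58.4% (replicate 2) for the genes that rose. For the genes that fell it was 59.1% (replicate 1) and 36.6% (replicate 2). Of the 14 hypertonic response genes 10 lay above both other libraries in BMS204352 replicate 3, 2 between them and 2 below both. This is another measure than the shares above, and the share of all genes above both libraries is not given here. The count is therefore a description only, and it takes in small margins such as that of Akr1b3. The members given here were chosen after their values were seen. Small differences were found for the sorbitol-making Akr1b3 (105, 105 and 106 CPM), the inositol carrier gene Slc5a3 (25.1, 19.6 and 23.3 CPM) and the chaperone Hspa1b (52.7, 69.8 and 64.1 CPM). The taurine carrier gene Slc6a6 (558, 523 and 390 CPM) and the chaperone gene Cryab (161, 162 and 135 CPM) lay lower in it. Others lay higher, such as S100a4 (14.5, 20.2 and 42.9 CPM) and the kinase gene Sgk1 (166, 189 and 254 CPM). Leukocyte markers summed to 9.01, 9.06 and 22.7 CPM in the 3 libraries, with Cd68 reaching 22.4 CPM and Ptprc and Cd3e at 0 counts in all AT-3 libraries, and their part in the Aqp1 value was not tested.

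**Figure D3:**
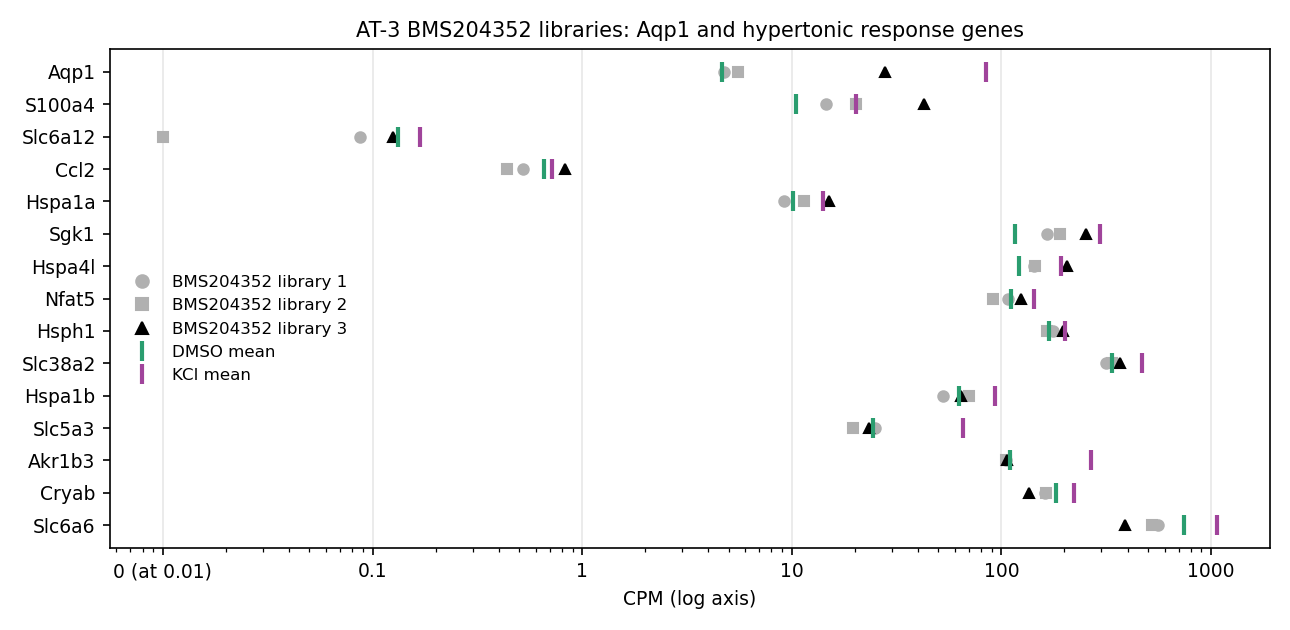
Aqp1 and the hypertonic response genes in the 3 AT-3 BMS204352 libraries (symbols), with the means of the DMSO and KCl libraries (ticks), in CPM on a log axis with 0 drawn at 0.01. In the replicate 3 library Aqp1 stands at 27.8 CPM between the DMSO mean of 4.65 and the KCl mean of 84.4. Akr1b3 and Slc5a3 stay near the DMSO mean, and Slc6a6 lies below it in all 3 BMS204352 libraries. Sgk1 (254 CPM) lies between the 2 means, and Hspa4l (205 CPM) and S100a4 (42.9 CPM) lie above the KCl mean. Of the 14 genes 10 lie above both other libraries, 2 between them and 2 below both, with no share over all genes given. Genes named here were chosen after their values were seen.

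The other aquaporins show what else of the family these cells express, compared here per kilobase of exon (RPKM). Aqp5, a water channel of gland epithelium, was the only other abundant member: in AT-3 its level was 13.2 RPKM at the median (8.33 to 23.0), beside 15.7 RPKM (1.27 to 42.8) for Aqp1. In E0771 Aqp5 had a median of 0.111 RPKM (0.0210 to 0.229) and Aqp1 one of 8.69 RPKM (4.47 to 17.4), so Aqp1 was the leading aquaporin of that line in all 18 libraries. In AT-3 the order of the group means turned with KCl: Aqp5 lay above Aqp1 in the 3 groups without it and below in the 3 groups with it.

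The glycerol-conducting Aqp3 was low, with a median of 0.220 RPKM in AT-3 and 0.693 RPKM in E0771. Aqp11, an intracellular member, had medians of 0.0773 and 0.365 RPKM. Aqp8, which also passes hydrogen peroxide, had 4 counts in all in AT-3 and up to 2.38 RPKM in E0771. Mip (Aqp0), Aqp2, Aqp6, Aqp7 and Aqp9 were traces of at most 18 counts in a library, and Aqp4 and Aqp12 had 0 counts in all 36 libraries, which allows at most 0.00374 CPM in AT-3 and 0.00434 CPM in E0771.

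Of the aquaporins besides Aqp1, 4 passed the filter on low counts in AT-3 and edgeR called 0 of them with KCl between libraries with an opener (1 at an unadjusted p under 0.05 with each opener). Over all AT-3 genes 4.56% were called with NS11021 and 4.76% with BMS204352. Aqp5 had a log2 fold change of 0.39 ± 0.14 (adjusted p = 0.143 by edgeR) with NS11021 and 0.17 with BMS204352. In E0771 5 passed the filter, and 1 of them, Aqp8, was called higher with KCl with each opener. Of all E0771 genes 20.4% were called higher with NS11021 and 15.8% with BMS204352, so 1 of 5 is close to those shares. Aqp8 had 0 to 26 counts per E0771 library without KCl and 32 to 136 with it, so it may have passed the filter through its KCl libraries. It went from 0.365 ± 0.226 to 3.31 ± 0.494 CPM (SD, n = 3) with NS11021, log2 3.15 ± 0.60 (adjusted p = 0.00023 by edgeR). With BMS204352 it went from 0.162 ± 0.147 to 1.07 ± 0.135 CPM, log2 2.73 ± 0.70 (adjusted p = 0.00489 by edgeR). Its level stayed far under that of Aqp1 throughout.

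**Figure D4:**
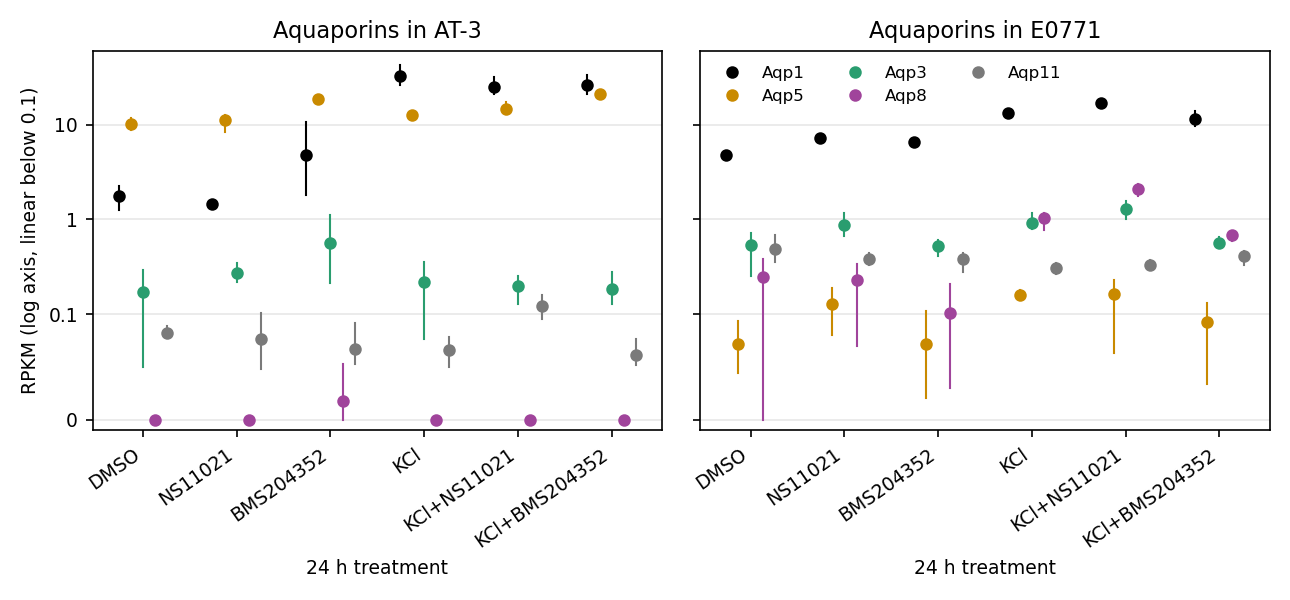
Mean level per kilobase of exon (RPKM, log axis, linear below 0.1) of the 5 aquaporins with most reads, by treatment; lines run from the lowest to the highest of 3 libraries. Aqp1 (black) passes Aqp5 (ochre) only with KCl in AT-3 and leads in every E0771 group, where Aqp8 (purple) reaches at most 2.38 RPKM.

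Genes of the hypertonic response rose with KCl beside Aqp1, which was kept out of the list. Of its 16 members 14 passed the filter on low counts in each line. With NS11021 on both sides 7 rose and 0 fell in AT-3 (2.97% of all genes were called higher and 1.59% lower) and 13 rose and 0 fell in E0771 (20.4% and 19.6%). With BMS204352 on both sides 6 rose and 0 fell in AT-3 (3.26% and 1.5%) and 12 rose and 0 fell in E0771 (15.8% and 16.1%). The median log2 fold change of the 14 was 0.60 and 0.40 in AT-3 and 1.15 and 0.73 in E0771, with medians of all genes within 0.01 of 0. At an unadjusted p under 0.05 by edgeR 0 members fell in any of the 4. The AT-3 counts with NS11021 and BMS204352 were 11 and 2 with only the 6 libraries compared, and 10 and 8 with same-numbered libraries as pairs. With AT-3 BMS204352 replicate 3 left out of the fit they were 10 and 9. Aqp1 had a larger rise than the list's median in all 4 comparisons, by a wide margin in AT-3. In E0771 it was 1.26 against 1.15 and 0.81 against 0.73, with an SE of 0.09 for Aqp1. Aqp1 was chosen for its large rise, so a place above that median was likely in advance and is a description only.

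Of the 5 members that passed in all 4 comparisons, 4 make or carry osmolytes or amino acids. Slc5a3, which carries myo-inositol into the cell, went from 16 ± 1.71 to 52.7 ± 7.94 CPM (SD, n = 3) with NS11021 in AT-3 and from 43.5 ± 4.76 to 196 ± 13.1 CPM in E0771. Its log2 fold change was 1.71 ± 0.24 and 1.49 ± 0.23 in AT-3, with NS11021 and BMS204352, and 2.18 ± 0.11 and 1.74 ± 0.11 in E0771. Slc5a3 thus had the smaller rise in AT-3, where Aqp1 had the larger; the difference between lines was not tested for Slc5a3. Akr1b3, the aldose reductase that makes sorbitol, had 1.03 ± 0.12 and 1.26 ± 0.12 in AT-3 and 1.38 ± 0.09 and 0.64 ± 0.09 in E0771. The taurine carrier gene Slc6a6 had 0.57 and 0.71 in AT-3 and 0.77 and 0.57 in E0771, and the amino acid carrier gene Slc38a2 had 0.55 and 0.44 in AT-3 and 1.13 and 0.84 in E0771.

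Among the chaperones Hspa1b, an inducible HSP70, rose in all 4 comparisons: 0.63 and 0.60 in AT-3 and 1.82 and 1.67 in E0771. It completes the 5 of 14 members past the threshold in all 4, with 0 members past it in opposite directions in the lines. In E0771 its values were above those of Akr1b3, Slc6a6 and Slc38a2. The betaine carrier gene Slc6a12, at under 2 CPM in these libraries, was the 1 member past it in none. The mRNA of Nfat5 itself passed in E0771 (1.0 ± 0.12 and 0.67 ± 0.12) and not in AT-3 (0.54 ± 0.17, adjusted p = 0.0882, and 0.27 ± 0.17, adjusted p = 0.431, by edgeR).

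**Figure D5:**
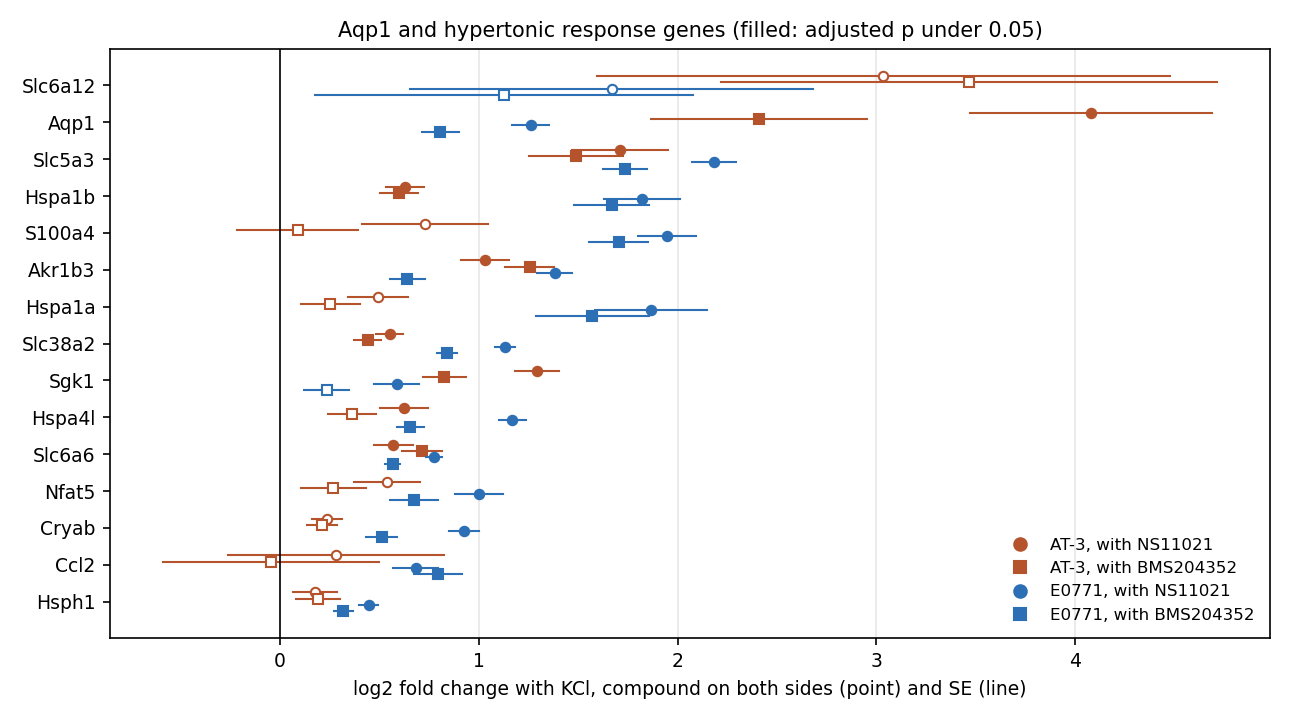
Log2 fold change with KCl (point) and its SE (line) of Aqp1 and the 14 tested hypertonic response genes, with NS11021 (circles) or BMS204352 (squares) on both sides, in AT-3 (orange) and E0771 (blue); filled points had an adjusted p under 0.05 by edgeR. Aqp1 lies further right in AT-3 (4.08 and 2.41) than in E0771 (1.26 and 0.81), whereas Slc5a3 and Hspa1b lie further right in E0771.

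Channels, cotransporters and kinases of cell volume regulation went both ways. Of 19 members, 19 of which passed the filter on low counts, 0 rose and 1 fell in AT-3 with either opener. That was Lrrc8d, a subunit of the volume-regulated anion channel (−0.34 with NS11021 and −0.43 with BMS204352). Over all AT-3 genes 4.56% were called with NS11021 and 4.76% with BMS204352, close to 1 of 19. At an unadjusted p under 0.05 by edgeR 3 and 2 members were higher there. In E0771 7 rose and 3 fell with NS11021 and 3 rose and 3 fell with BMS204352, where 40% and 31.9% of all genes were called. With NS11021 10 of the 19 were thus called and with BMS204352 6 of the 19. The list is small and was not tested as a set, so neither count is read as a result about it. The median log2 fold change of the 19 was between −0.04 and 0.04 in the 4 comparisons. No member passed in all 4, so those given here were chosen after their values were seen. In E0771 the potassium chloride cotransporter gene Slc12a7 rose (0.65 ± 0.05 and 0.37 ± 0.05), and the kinase gene Stk39, which activates the sodium potassium chloride cotransporter, fell (−0.86 ± 0.06 and −0.76 ± 0.06). Slc12a2, which encodes that cotransporter, fell as well (−0.25 ± 0.06 and −0.35 ± 0.06).

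The genes whose levels followed Aqp1 most closely were found by correlating log2 CPM over the 18 libraries of each line among 8916 well expressed genes and ranking by the smaller value of the 2 lines. Points share treatment groups and the KCl contrast, so these correlations describe a common pattern only. Dusp1, a phosphatase of MAP kinases, came first (Pearson r of 0.947 in AT-3 and 0.936 in E0771), followed by the chaperone gene Hspa4l (0.919 and 0.938), Sec14l1 (0.977 and 0.919), Ubap1 (0.918 and 0.941), Zswim4 (0.960 and 0.912) and Akr1b3 (0.939 and 0.911). Hspa4l and Akr1b3 belong to the hypertonic list. The rise of Dusp1 with KCl was 1.2 ± 0.22 with NS11021 in AT-3 and 1.89 ± 0.12 in E0771, again smaller in AT-3 than that of Aqp1 and larger in E0771.

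Markers of cell types known for Aqp1 were measured beside it. Endothelial markers summed to 4.68 to 6.06 CPM without KCl and 3.91 to 6.27 CPM with it in AT-3, where Aqp1 rose most. In E0771 they summed to 41.6 to 56.2 CPM without KCl and 39.2 to 48.6 CPM with it, most of it Egfl7. Pecam1 had 0.436 to 3.92 CPM in the E0771 libraries, while Emcn and Cldn5 were at 0 counts. Endothelial sums thus overlapped between libraries with and without KCl in both lines. Erythroid markers summed to at most 1.34 CPM in AT-3, with all 9 below 1 CPM. In E0771 they ran from 2.53 to 6.03 CPM without KCl and from 7.08 to 9.72 CPM with it. They thus moved with KCl there, mostly through the erythropoietin receptor gene Epor. The globin genes Hba-a1 (9 to 47 counts) and Hba-a2 (3 to 19 counts) were present at low level in every E0771 library. Hbb-bs and Hbb-bt were at 0 counts in all libraries of both lines. Leukocyte markers ran from 10.3 to 21.1 CPM without KCl and 5.60 to 11.8 CPM with it in E0771, and fibroblast markers overlapped in both lines. Epithelial markers, in E0771 mostly Krt8, ran from 199 to 228 CPM without KCl and from 141 to 167 CPM with it in that line. What part the E0771 marker changes have in the Aqp1 values was not tested; in bulk RNA more cells of a type and more RNA per cell cannot be told apart.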

How the data were processed

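RNA was sequenced from 36 libraries, 3 in each of 12 groups, prepared with NuGen Universal Plus mRNA reagents per the labels' protocols. The deposited values are whole-number read counts per gene, made by the authors with STAR on GRCm38 and featureCounts, per the submitters' processing notes; tool versions and the strand setting were not given in the sources used here. Of 32287 IDs, 2 of human form (6 counts) were left out, and symbols came from GENCODE vM21 (127 IDs without one, 0.0415% of counts; for 26 IDs another ID with more counts holds the symbol). Low counts from 1 to 10 were 84.5% even, as when both mates of a pair are counted, so halved counts were also tested.

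CPM and RPKM were computed here from those counts. edgeR 4.0.16 (R 4.3.3; filterByExpr with minimum count 10 and minimum total 15, TMM, robust quasi-likelihood test) was fitted to the 18 libraries of a line, or to all 36 for differences between lines, with Benjamini-Hochberg adjustment over all genes tested and a threshold of 0.05. The coefficient of variation between replicates was 0.116 in AT-3 and 0.0707 in E0771. Aqp1 was tested in 16 comparisons and described in 13. Samples were grouped by their titles. Alternatives were DESeq2 1.42.0 (test and size factors), no filter, 1 CPM in 3 libraries, halved counts, only the libraries compared, a replicate block, leaving out the replicate 3 libraries of both BMS204352 treatments, and leaving out each replicate.

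The members and lists were chosen with earlier results of these data known. Genes named are Aqp1, the aquaporins, list members past the threshold in all 4 KCl comparisons with an opener on both sides, the 3 largest rises, the 6 genes most like Aqp1, and those said to be chosen later. Lists were aquaporins, hypertonic response, cell volume regulation, and markers of endothelium, erythroid cells, leukocytes, fibroblasts and epithelium. Replicate numbers are shared across groups: deviations of same-numbered libraries correlated above 0.1 for all 3 numbers in each of the 4 KCl comparisons (0.115 to 0.673) and between KCl+NS11021 and KCl+BMS204352 in E0771, but not between NS11021 and BMS204352 in either line or between KCl+NS11021 and KCl+BMS204352 in AT-3. The scripts were tested on simulated data with known changes. Intervals and floors (3 counts over a line's summed totals) cover counting error and fitted spread only.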

Additional observations from a re-analysis of the deposited data

Results flagged for a closer look

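The rise of Aqp1 with KCl differed between the lines by a test of the difference itself. With NS11021 on both sides the log2 fold change was 4.08 ± 0.61 (SE) in AT-3, where each of 3 libraries with KCl held 55.5 to 84.0 CPM against 3.55 to 4.02 CPM without it. It was 1.26 ± 0.09 in E0771, with 43.1 to 45.8 CPM against 17.7 to 20.4 CPM. E0771 minus AT-3 was −2.82 ± 0.57 (adjusted p = 0.00198 by edgeR), between −2.93 and −2.61 when each of the 12 libraries was left out in turn. On the linear scale the gain in mean level was 61.5 CPM in AT-3 and 25.9 CPM in E0771.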

How the results depend on the processing

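The alternatives gave 513 recomputations of 33 values or counts. Of these recomputations 484 kept the direction and side of the threshold, or the approximate size, of the main result. A count of hypertonic genes near the main one was taken as kept, so 10 against 7 was not a change. DESeq2 size factors, the filters and halved counts changed no call of Aqp1. With no filter the hypertonic genes past the threshold in AT-3 with NS11021 were 8 of 16, against 7 of 14 in the main fit. The 4 rises with KCl and the line difference within NS11021 kept their sign in every setting run. DESeq2 took AT-3 NS11021 against BMS204352 past the threshold (−1.73, adjusted p = 0.0388). With only the libraries compared, AT-3 KCl+BMS204352 against BMS204352 lost its call (2.41), E0771 against AT-3 with KCl+NS11021 gained one (−0.54), and hypertonic genes past the threshold in AT-3 numbered 11 with NS11021 and 2 with BMS204352. The replicate block, that is the pairing of same-numbered libraries, changed 1 call of Aqp1, the line difference of the KCl effect within BMS204352 (−1.80), and no other call of Aqp1; hypertonic genes past the threshold in AT-3 numbered 10 with NS11021 and 8 with BMS204352 under it, and in E0771 their counts did not change. Without the replicate 3 libraries of both BMS204352 treatments, AT-3 KCl+NS11021 against KCl+BMS204352 turned sign (0.17, adjusted p = 0.864), AT-3 BMS204352 against DMSO was 0.14, the E0771 difference of the KCl effect between openers was 0.58 (adjusted p = 0.0112), and the line differences were 1.73 with BMS204352, −0.53 with KCl+NS11021 and −2.84 for the KCl effect within BMS204352, all past the threshold. Leaving out only AT-3 BMS204352 replicate 3, an alternative chosen after seeing the data, gave 0.14, 1.76, −0.53 and −2.92 for AT-3 BMS204352 against DMSO and those 3 line differences. The cause of these changes was not tested.

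Leaving out each replicate in turn gave 2.01 to 3.73 for AT-3 KCl+BMS204352 against BMS204352, −2.12 to −0.40 for AT-3 NS11021 against BMS204352 and −0.27 to 0.16 for AT-3 KCl+NS11021 against KCl+BMS204352, whose sign turned without KCl+NS11021 replicate 1 (0.05) or 2 (0.04) or KCl+BMS204352 replicate 3 (0.16). It gave 0.14 to 1.86 for AT-3 BMS204352 against DMSO and 0.33 to 0.60 for the E0771 difference of the KCl effect between openers. For the line differences it gave 0.027 to 1.76 with BMS204352, −1.40 to −1.01 with KCl and −2.92 to −1.21 for the KCl effect within BMS204352. Depth did not limit Aqp1, which had at least 146 counts in every library. The fitted spread between libraries of a group did in AT-3, and it depended on BMS204352 replicate 3. The SE of the AT-3 rise with KCl between NS11021 libraries was 0.61, and 0.30 with that library left out of the fit.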

Other observations

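Trpv4, a calcium channel that opens on cell swelling and was in the cell volume list, stood out for its level rather than its response, and was chosen after its values were seen. With NS11021 it had 363 ± 3.21 CPM without KCl and 394 ± 7.95 CPM with it in AT-3 (SD, n = 3), and 0.305 ± 0.217 and 0.881 ± 0.0467 CPM in E0771. Its log2 fold change with KCl was 0.11 ± 0.06 in AT-3 (adjusted p = 0.343 by edgeR) and 1.52 ± 0.56 in E0771 (adjusted p = 0.0291 by edgeR); the difference between lines was not tested.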
